A study of Mus musculus with 12 samples.

Results

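Annexins are cytosolic proteins that bind acidic phospholipids in the presence of calcium through a conserved core of repeats, and so connect calcium signals to membrane traffic, repair and the cytoskeleton. Annexin A6, encoded by Anxa6, carries a duplicated core and is known for binding late endosomes and the plasma membrane, where it recruits the Ras regulator RASA1 and protein kinase C alpha. The 8 genes described are Anxa1, Anxa2, Anxa3, Anxa4, Anxa5, Anxa6, Anxa7 and Anxa11, found by their symbols among the 24421 genes of the count files. Anxa6 was chosen by its lower count in the KO-labelled libraries of these same data, so its genotype difference is given as a description with no test. The other 7 genes were taken as its family, and they are tested in every comparison.

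The samples were the dorsal hippocampus of 12 male mice of mixed 129sv/C57BL/6j strain, aged 4 to 5 months. They formed 4 groups of 3 mice: Mbnl2 WT house controls, Mbnl2 WT trained mice, Mbnl2 KO house controls and Mbnl2 KO trained mice. Mbnl2 encodes a muscleblind-like protein that binds RNA and controls alternative splicing in the brain. The series title names object recognition memory and the processing of new contexts, and the labels give neither the deleted part of Mbnl2 nor what the training was.

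Total counts per library ran from 19737929 to 27427076, and 17493 to 18300 genes had at least 1 read. Levels are given as CPM, the count relative to the library size after TMM scaling, where 3 counts correspond to 0.105 to 0.154 CPM. The Mbnl2 count itself was higher, not lower, in the libraries labelled KO (454 to 542 CPM, against 315 to 365 CPM in WT). A count summed over the whole gene does not check a deletion of part of it, so the text speaks of KO-labelled libraries. Markers of 12 cell types or neighbouring regions were summed as a check of the tissue, and the 14 listed markers of hippocampal pyramidal and granule neurons gave 783 to 1711 CPM. KO house control replicate 2, KO trained replicate 2 and WT house control replicate 3 stood apart in the 10 markers of striatum and septum, with 1165, 1551 and 1012 CPM against 219 to 293 CPM in the other 9 libraries. In dissected tissue, fewer cells of a type and less RNA per cell cannot be told apart.

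Mouse Anxa6 lies on the minus strand of chromosome 11 (mm10, 54979108 to 55033445; ENSMUSG00000018340.13). Its annotated coding transcripts include 2 that differ by a cassette exon, the kind of exon that splicing factors include or skip. The exon is exon 21 of 26 in the longer form (2489 bases, against 2471 in the shorter), at chr11:54987051-54987068, is 18 bases long, lies wholly in the coding sequence and keeps the reading frame. The 2 forms are shown because the deposited count adds them up, so that the values for Anxa6 describe the gene and not either form. They are printed 5′ to 3′ as in the GENCODE M21 transcripts on GRCm38, with the cassette exon in capitals.
Anxa6, longer form: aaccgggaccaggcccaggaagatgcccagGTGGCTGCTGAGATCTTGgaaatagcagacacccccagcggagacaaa
Anxa6, shorter form: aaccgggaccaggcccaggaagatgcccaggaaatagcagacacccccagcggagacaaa
No gene model on either strand overlapped Anxa6.

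Anxa6 was the annexin with the highest level per length in WT hippocampus, and its level in the KO-labelled libraries was less than its lowest WT value in all 6. In WT house controls it measured 157, 132 and 144 CPM, and in WT trained mice 131, 173 and 149 CPM. In KO-labelled house controls it measured 76.0, 59.1 and 71.3 CPM, and in KO-labelled trained mice 71.4, 70.6 and 68.0 CPM. The genotypes did not overlap: the mean was 147 ± 16.2 CPM over WT mice and 69.4 ± 5.68 CPM over KO-labelled mice (SD, n = 6 each). Of all 15622 genes tested, 0.717% were likewise lower in the KO-labelled libraries without overlap.

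**Figure D1:**
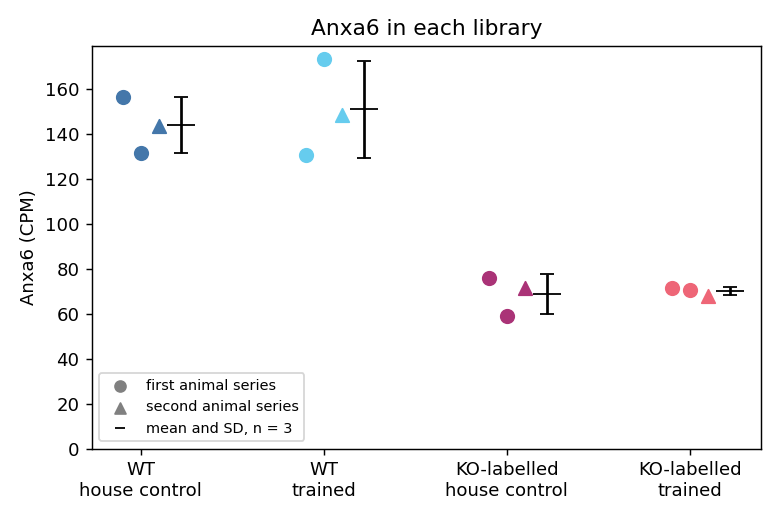
Anxa6 in CPM (vertical axis, from 0) for each of the 12 libraries by group, with circles for the first and triangles for the second animal series and bars for the group mean and SD (n = 3). The 6 KO-labelled libraries lie between 59.1 and 76.0 CPM and the 6 WT libraries between 131 and 173 CPM.

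The fold difference in Anxa6 was close to 2 in both treatments. The log2 fold change, KO over WT, was -1.06 (SE 0.12, 2.09-fold) in house controls and -1.11 (SE 0.12, 2.16-fold) in trained mice. Their mean was -1.09 (SE 0.09). Under the alternative scalings, filters, tools and left-out libraries that were run, the mean lay between -1.16 and -1.03. The authors' deposited tables give -1.06 (their SE 0.149) and -1.11 (their SE 0.131). Animal numbers in the labels fall into 2 series, and the second held 1 mouse a group: there Anxa6 was 144 and 149 CPM in WT against 71.3 and 68.0 CPM in KO-labelled mice, so that the gap was present in both series.

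Anxa6 was not called for training in either genotype. The change from house control to trained was 0.07 (SE 0.12, edgeR adjusted p = 0.783) in WT and 0.03 (SE 0.12, edgeR adjusted p = 1.00) in KO-labelled mice on the log2 scale. The genotype difference in trained mice minus that in house controls was -0.04 (SE 0.17, edgeR adjusted p = 1.00). These tests do not show that the values are equal. In each of these 3 comparisons 0% of all genes passed an adjusted p of 0.05 by edgeR's quasi-likelihood test. At an unadjusted p under 0.05 there were 1534, 471 and 235 genes, and DESeq2 called 16, 7 and 0.

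None of the genes next to Anxa6 on chromosome 11 was called between genotypes. On one side lie Hint1, Gpx3 and Tnip1, and on the other Ccdc69, Gm2a and Slc36a2. Their mean genotype log2 fold changes ran from -0.51 for Ccdc69 (SE 0.25) to -0.02 for Hint1 (SE 0.05) (edgeR adjusted p = 0.394 to 0.866). Tnip1, whose product restrains NF-kappaB signalling and which is the nearest of the first 3, had a mean of 25.00 ± 3.32 CPM over WT mice and 23.8 ± 1.73 CPM over KO-labelled mice (SD, n = 6 each). Gm2a, the activator protein of ganglioside breakdown, measured 75.1 ± 20.2 and 70.8 ± 9.45 CPM. The differences of these 6 from that of Anxa6 were not tested.

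Levels of different genes were compared per kilobase of merged exon. That length takes in every annotated transcript, and which of them were used was not tested. It is 5991 bases from 11 transcripts for Anxa7, 4135 from 4 for Anxa11 and 1777 from 3 for Anxa5. Without the length, means over 12 libraries were 79.7 ± 9.08 CPM for Anxa7, 72.2 ± 15.8 for Anxa11 and 48.9 ± 16.1 for Anxa5 (SD), another order than the one below. In WT libraries Anxa6 led with 50.3 ± 5.53 CPM per kb (range 44.6 to 59.2), followed by Anxa5 with 31.8 ± 9.55 (19.8 to 46.4), Anxa11 with 19.2 ± 2.99 (14.3 to 21.7) and Anxa7 with 12.7 ± 1.68 (9.998 to 14.8; SD, n = 6). In the KO-labelled libraries Anxa6 at 23.7 ± 1.94 CPM per kb and Anxa5 at 23.2 ± 6.71 were neighbours within their spread. Anxa11 at 15.8 ± 4.05 and Anxa7 at 13.9 ± 1.17 CPM per kb overlapped too. A wide step separated these 4 from the rest: the lowest Anxa7 value was 9.998 CPM per kb and the highest Anxa2 value 5.27. Anxa2 (mean over 12 libraries 2.56), Anxa4 (1.49), Anxa3 (1.29) and Anxa1 (0.321 CPM per kb) overlapped with their neighbours in that order. Anxa1 was near the limit of the data, with 5 to 52 counts per library. All 8 passed the filter on low counts.

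**Figure D2:**
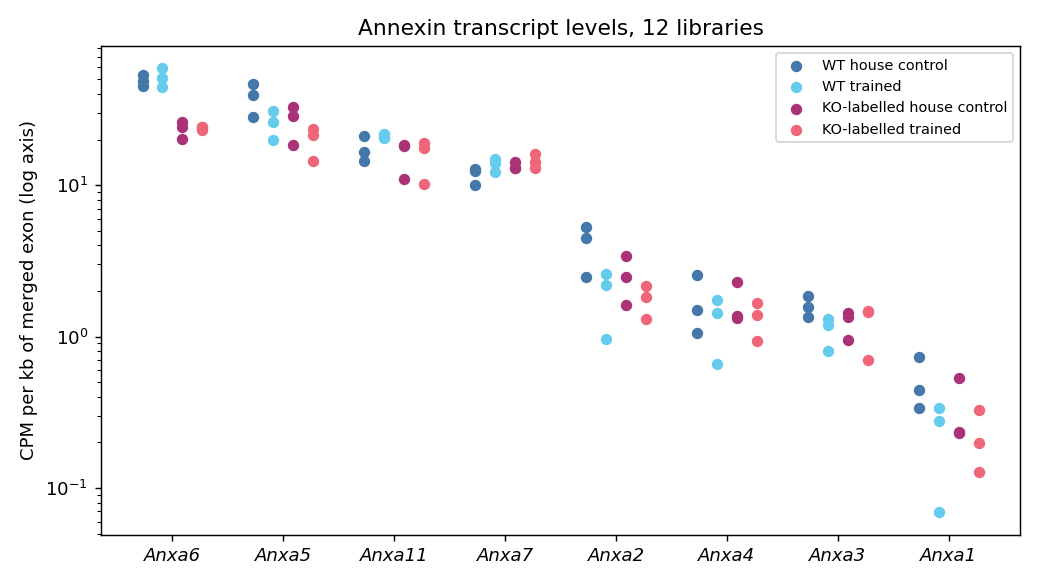
Level of each annexin in CPM per kilobase of merged exon (log axis) in the 12 libraries, coloured by group, with genes ordered by their mean. Anxa6, Anxa5, Anxa11 and Anxa7 lie at or above 9.998 and Anxa2, Anxa4, Anxa3 and Anxa1 at or below 5.27 CPM per kb, and only Anxa6 separates WT from KO-labelled libraries without overlap.

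The other annexins summed to 203 to 268 CPM in WT and 178 to 250 CPM in KO-labelled libraries, ranges that overlapped. Anxa6 made up 34.7 to 46.1% of the summed CPM of the 8 genes in WT and 22.2 to 28.4% in KO-labelled libraries. These shares are of reads, not corrected for length.

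None of the other 7 annexins was called between genotypes. The share of all genes called was 0.0128% in house controls, 0.0128% in trained mice and 0.576% in the mean of both treatments (0.384% higher and 0.192% lower). The last share rests on 90 genes, a count that 1 library moved widely: it was 268 without WT house control replicate 1, 8 without WT trained replicate 3 and 11 without KO trained replicate 1, and lay between 21 and 63 without any other. Over both treatments 5 of the 7 had a negative log2 fold change, as did 52% of all genes. The median of the 7 was -0.27, where that of all genes tested was -0.01.

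Anxa5, whose product binds exposed phosphatidylserine and serves as a probe for dying cells, had the lowest p of the 7. It measured 49.98, 69.5 and 82.5 CPM in WT house controls, 46.7, 35.2 and 54.9 CPM in WT trained mice, 32.9, 50.9 and 58.4 CPM in KO-labelled house controls and 25.7, 37.8 and 41.8 CPM in KO-labelled trained mice. Each KO-labelled group overlapped its WT group. The mean genotype log2 fold change was -0.44 (SE 0.19), with an unadjusted p of 0.0401 and an edgeR adjusted p = 0.314, and 5.89% of all genes were lower at such an unadjusted p. Markers of 3 neighbouring tissues were negative in the same contrast: thalamus, which adjoins the dorsal hippocampus, in 9 of 10 (median -0.62), leptomeningeal fibroblasts in 17 of 17 (median -0.88) and choroid plexus epithelium in 13 of 13 (median -1.37). Striatum and septum markers went the other way in 10 of 10 (median 1.176), and neocortex markers in 7 of 10 (median 0.408). No marker in these lists was called, and the summed levels overlapped between genotypes in each list. Choroid plexus markers summed to 161 to 22530 CPM in WT and 235 to 6656 CPM in KO-labelled libraries. In KO house control and KO trained replicate 2, striatum and septum markers summed to 1165 and 1551 CPM, and neocortex markers to 361 and 434 CPM. The other KO-labelled libraries held 223 to 289 and 232 to 257 CPM, and WT libraries 219 to 1012 and 215 to 309 CPM. The part of these tissues in the Anxa5 value was not tested.

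Anxa11, which encodes an annexin that tethers RNA granules to lysosomes, was low in 2 KO-labelled libraries. It measured 86.9, 59.2 and 68.4 CPM in WT house controls and 89.7, 84.8 and 86.1 CPM in WT trained mice. In the KO-labelled groups it measured 75.4, 45.5 and 76.6 CPM in house controls and 73.2, 41.9 and 78.5 CPM in trained mice, so that replicate 2 of each was the low one. Trained KO-labelled mice lay below trained WT mice without overlap, as did 6.38% of all genes. The mean genotype log2 fold change was -0.27 (SE 0.18, edgeR adjusted p = 0.510). Without KO replicate 2 of both treatments it was -0.04 (SE 0.10, edgeR adjusted p = 0.846), and the value in house controls turned from -0.12 to 0.10. Leaving out the lowest library of each group raises the value by construction. Those 2 libraries had the highest summed markers of striatum and septum (1165 and 1551 CPM) and of neocortex (361 and 434 CPM, against 215 to 309 CPM in the others). WT house control replicate 3, with 1012 CPM of striatal and septal markers, had 68.4 CPM of Anxa11, and WT house control replicate 2, with 293 CPM of them, had 59.2 CPM. The part of those regions in the Anxa11 value was not tested.

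**Figure D3:**
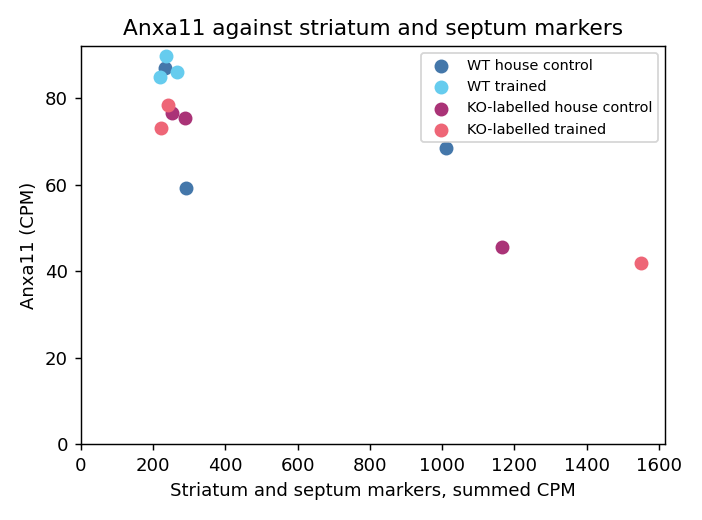
Anxa11 in CPM (vertical axis, from 0) against the summed CPM of 10 markers of striatum and septum (horizontal axis, from 0), 1 point per library, coloured by group. The 2 KO-labelled libraries with 1165 and 1551 CPM of these markers hold the lowest Anxa11 values, 45.5 and 41.9 CPM.

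Anxa7, known as synexin for its ability to join secretory granules, had the smallest coefficient of variation of the 8 over all 12 libraries (11.4%), while within each genotype that of Anxa6 was smaller (10.98% against 13.2% in WT, 8.18% against 8.44% in KO-labelled libraries). Anxa7 measured 74.0, 59.9 and 77.0 CPM in WT house controls and 78.1, 77.8 and 85.0 CPM in KO-labelled house controls. In trained mice it measured 88.8, 73.0 and 84.2 CPM in WT and 85.0, 78.1 and 95.9 CPM in KO-labelled libraries. House controls did not overlap, with the KO-labelled mice higher, a pattern found in 6.94% of all genes, and the trained groups overlapped. Its mean genotype log2 fold change was 0.13 (SE 0.08, edgeR adjusted p = 0.478). In house controls 6.09% of all genes were lower without overlap, and of the 8 annexins Anxa6 alone was. Anxa7 and Anxa11 lie on chromosome 14, the chromosome of Mbnl2, at 20455260 to 20480133 and 25842156 to 25886804, with Mbnl2 at 120275669 to 120431697.

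The 4 annexins of low level differed between genotypes by less than their errors allowed a call. Anxa2, which forms a complex with S100A10 at the cell surface, was at -0.41 on the log2 scale in the mean genotype difference (SE 0.29, edgeR adjusted p = 0.536). Anxa1, the glucocorticoid-induced ligand of formyl peptide receptors, was at -0.34 (SE 0.41, edgeR adjusted p = 0.742) and Anxa3 at -0.12 (SE 0.21, edgeR adjusted p = 0.846). Anxa4 was at 0.01 (SE 0.29, edgeR adjusted p = 0.996), with 6.93 ± 3.02 CPM over WT mice and 6.95 ± 2.09 CPM over KO-labelled mice (SD, n = 6 each).

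**Figure D4:**
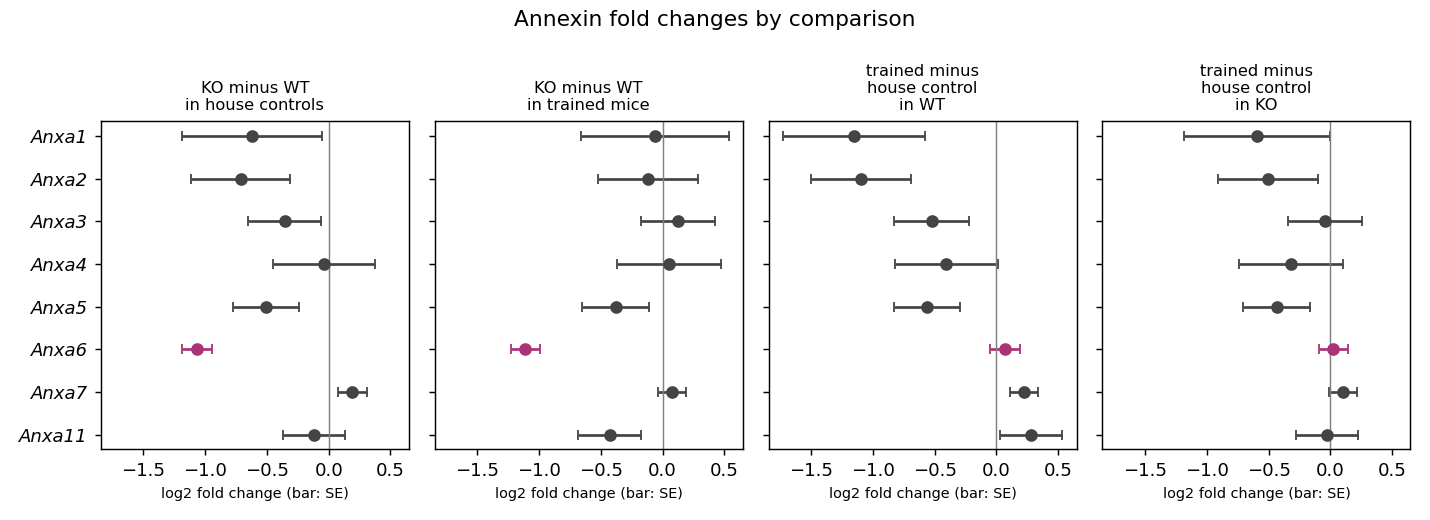
Log2 fold change (horizontal axis; bars are the SE) of the 8 annexins in the 4 comparisons between groups of 3, with Anxa6 in colour. Anxa6 lies at -1.06 and -1.11 between genotypes and at 0.07 and 0.03 for training. For training in WT, Anxa1 lies at -1.15 and Anxa2 at -1.10.

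Training was followed by no called change in any annexin. In the mean over genotypes edgeR called 0% of all genes, 1744 genes had an unadjusted p under 0.05, and DESeq2 called 69. Averaged over genotypes, Anxa1, Anxa2, Anxa3, Anxa4 and Anxa5 were negative and Anxa6, Anxa7 and Anxa11 positive, and 52.3% of all genes were negative. At an unadjusted p under 0.05 lay 2 of the 7, Anxa2 and Anxa5, both lower, as were 6.59% of all genes.

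Anxa2 had the largest training value that reached such a p. It measured 9.26, 16.7 and 19.7 CPM in WT house controls and 8.17, 3.57 and 9.61 CPM in WT trained mice. In KO-labelled mice it measured 6.06, 9.22 and 12.6 CPM in house controls and 4.86, 6.78 and 8.08 CPM in trained mice. The groups overlapped within each genotype, and WT house control replicates 2 and 3 were the highest 2 of the 12. The log2 change was -1.10 in WT (SE 0.40, unadjusted p of 0.0212, edgeR adjusted p = 0.502) and -0.50 in KO-labelled mice (SE 0.41, edgeR adjusted p = 1.00), and 5.04% of all genes were lower at an unadjusted p under 0.05 in WT. The difference between the 2 was 0.59 (SE 0.57, edgeR adjusted p = 1.00). The authors' deposited table for WT training gives -1.10 for Anxa2 with an adjusted p of 0.376, and none of the 7 annexins other than Anxa6 had an adjusted p under 0.05 in the authors' deposited tables. In them 0.558% and 0.834% of genes passed between genotypes in house controls and trained mice, and 0.117% and 0.0716% for training in WT and KO.

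Anxa5 was at -0.56 (SE 0.27, edgeR adjusted p = 0.502) for training in WT and at -0.43 (SE 0.27, edgeR adjusted p = 1.00) in KO-labelled mice. Anxa3 measured 4.89, 5.71 and 6.77 CPM in WT house controls and 4.78, 2.93 and 4.37 CPM in WT trained mice. These did not overlap, as in 7.8% of all genes, but the test gave an edgeR adjusted p = 0.510 (log2 change -0.52, SE 0.30). Leaving out 1 library at a time gave WT training values from -1.37 to -0.77 for Anxa2 and from -0.73 to -0.39 for Anxa5, none of them called. In 7 of the 12 marker lists every member was negative for training in WT, where all genes had a median of -0.01. These were striatum and septum (10 of 10, median -1.89), leptomeningeal fibroblasts (17 of 17, -1.12), choroid plexus epithelium (13 of 13, -0.96), thalamus (10 of 10, -0.83), oligodendrocytes (11 of 11, -0.64), mural cells (10 of 10, -0.55) and endothelium (12 of 12, -0.44). No marker in them was called, and their part in the annexin values was not tested. The summed level for the thalamus was 306 to 681 CPM in WT house controls against 239 to 409 CPM in WT trained mice. For the leptomeninges it was 1567 to 2444 against 254 to 1580 CPM, and for oligodendrocytes 3394 to 13294 against 2933 to 8440 CPM. For striatum and septum it was 233, 293 and 1012 against 219 to 266 CPM, the high value being that of WT house control replicate 3. For choroid plexus epithelium it was 278 to 22530 against 161 to 11644 CPM, ranges that overlapped. For mural cells it was 246 to 340 against 170 to 217 CPM, and for endothelium 397 to 460 against 311 to 360 CPM.

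Across the 12 libraries 5 annexins varied together. Of 28 pairs of annexins, 10 had an adjusted p under 0.05 for Pearson's r of log2(CPM + 1) by permutation, and these were the 10 pairs among Anxa1, Anxa2, Anxa3, Anxa4 and Anxa5. The tightest was Anxa2 with Anxa5 (r = 0.931, permutation p = 4.0e-05, adjusted over 28 pairs 0.00112; rho = 0.972, permutation p = 1e-05, the smallest the permutations can give, adjusted 0.00028). It was 0.963 without the 2 libraries farthest from the median, 0.889 in the 8 libraries of the first animal series, and 0.941 after subtracting group means. Anxa1 with Anxa2 had r = 0.909 (permutation p = 0.00019, adjusted 0.00266; rho = 0.881, adjusted 0.00532; 0.789 without the 2 libraries, 0.869 in the first series). Without the 2 libraries farthest from the median the other 8 pairs had r from 0.388 to 0.719, so several of them rest on those libraries. By Spearman's rho the pairs Anxa1 with Anxa3, Anxa1 with Anxa4, Anxa2 with Anxa3, Anxa3 with Anxa4 and Anxa3 with Anxa5 had adjusted values of 0.12, 0.0836, 0.0748, 0.0836 and 0.0705. The second series holds 4 libraries, too few for a value. Every pair that includes Anxa6, Anxa7 or Anxa11 missed the threshold, the closest being Anxa6 with Anxa11 (r = 0.531, permutation p = 0.0808, adjusted 0.206, and rho = 0.531). A pooled r of Anxa6 spans its genotype gap. After subtracting group means, with no test, Anxa6 had r of -0.623 with Anxa2, -0.596 with Anxa3 and -0.549 with Anxa5. With Anxa1 and Anxa4 it was -0.385 and -0.368, with Anxa7 -0.114 and with Anxa11 0.442. Anxa1 with Anxa7 was at 0.720 after the same subtraction.

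Promoters are shown for Anxa2 and Anxa5, the pair that moved together most closely. RefSeq starts were matched for 6 of the 8 genes (GRCm38.p6), all but Anxa3 and Anxa6. The 250 bases before each start are printed 5′ to 3′ on the gene's strand, from chr9:69453433-69453682 (plus) for Anxa2 and chr3:36475888-36476137 (minus) for Anxa5. Matches to TATAAA, the letters of a TATA box, and to TGANTCA, the letters bound by AP-1 factors, are in capitals. Both were searched on both strands, and they do not overlap.
Anxa2: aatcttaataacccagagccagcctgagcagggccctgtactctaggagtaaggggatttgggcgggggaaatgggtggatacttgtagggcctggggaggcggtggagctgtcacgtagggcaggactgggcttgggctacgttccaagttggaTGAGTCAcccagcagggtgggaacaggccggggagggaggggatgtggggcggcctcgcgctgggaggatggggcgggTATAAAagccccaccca
Anxa5: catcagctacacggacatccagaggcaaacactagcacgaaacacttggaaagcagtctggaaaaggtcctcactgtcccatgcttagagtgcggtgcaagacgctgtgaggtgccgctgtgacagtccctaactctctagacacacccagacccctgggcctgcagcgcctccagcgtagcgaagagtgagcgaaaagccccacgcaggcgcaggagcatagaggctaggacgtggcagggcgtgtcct
Anxa2 holds 1 match to each and Anxa5 holds 0 of either. Anxa1 holds 1 TATAAA and 0 TGANTCA, and the windows of Anxa4, Anxa7 and Anxa11 hold 0 of both. Of 32851 RefSeq promoter windows of that length, 12.4% hold TATAAA and 6.75% hold TGANTCA. These are matches of letters in a window and no measure of binding.

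Anxa2 and Anxa5 followed the markers of the thalamus from library to library. The mean log2(CPM + 1) of 10 thalamus markers (among them Tcf7l2, Slc17a6 and Prkcd) was set against each annexin, as were 11 further marker lists. The libraries fell into separate clusters for 6 of the 12 lists, which get no pooled value, and 9 of the remaining 48 pairs had an adjusted p under 0.05 over all 96 computed. Anxa5 had r = 0.948 with the thalamus markers (permutation p = 1e-05, the smallest the permutations can give, adjusted 0.00096; rho = 0.972, adjusted 0.00048). Anxa2 had r = 0.942 (permutation p = 2.0e-05, adjusted 0.00096; rho = 0.972, adjusted 0.00048). Without the 2 libraries farthest from the median of the markers these were 0.950 and 0.927, and within the first animal series 0.948 and 0.940. Within WT they were 0.993 and 0.980, and within KO-labelled libraries 0.912 and 0.966 (n = 6 each). In each of the 4 groups the library of the second animal series was the highest for Anxa2, for Anxa5 and for these markers.

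**Figure D5:**
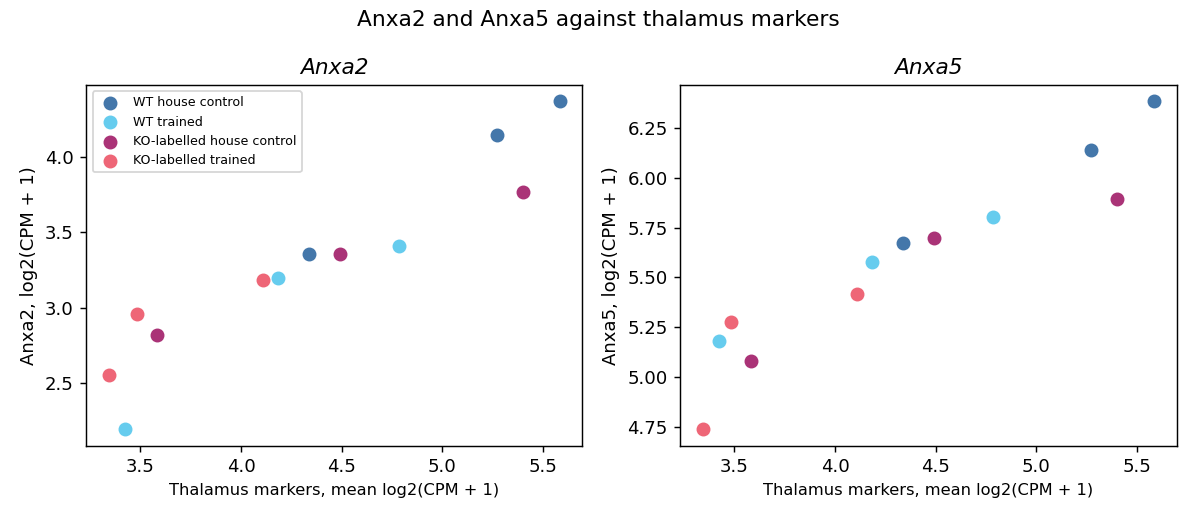
Anxa2 (left) and Anxa5 (right), as log2(CPM + 1), against the mean log2(CPM + 1) of 10 thalamus markers, 1 point per library, coloured by group. Both rise with the markers across the 12 libraries, with r = 0.942 for Anxa2 and 0.948 for Anxa5.

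Anxa1 also followed the thalamus markers (r = 0.885, permutation p = 5.0e-05, adjusted 0.0016; rho = 0.867, adjusted 0.0125; 0.786 without the 2 libraries, 0.830 in the first series). Anxa4 did so with r = 0.748 (permutation p = 0.00441, adjusted 0.0374; rho = 0.755, adjusted 0.0610), but this fell to 0.513 without the 2 libraries and 0.425 in the first series, so it rests on few libraries. Markers of leptomeningeal fibroblasts went with Anxa1 (r = 0.786, permutation p = 0.0019, adjusted 0.0304; rho = 0.783, adjusted 0.0461; 0.772 without the 2 libraries, 0.736 in the first series) and Anxa2 (r = 0.770, permutation p = 0.00311, adjusted 0.0373; rho = 0.797, adjusted 0.0459; 0.871 and 0.671). Markers of oligodendrocytes, the myelin-forming cells, went with Anxa3 (r = 0.760, permutation p = 0.00406, adjusted 0.0374; rho = 0.713, adjusted 0.0806; 0.846 and 0.747), Anxa4 (r = 0.766, permutation p = 0.00324, adjusted 0.0373; rho = 0.727, adjusted 0.0743; 0.572 and 0.824) and Anxa2 (r = 0.751, permutation p = 0.00467, adjusted 0.0374; rho = 0.650, adjusted 0.109; 0.776 and 0.709). No annexin passed with microglia, astrocyte or hippocampal neuron markers. All these values share the libraries and their scaling.

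Anxa6 passed with none of the 6 lists that got a pooled value. Its largest r was 0.447 with leptomeningeal markers (permutation p = 0.142, adjusted 0.324; rho = 0.413, adjusted 0.331; 0.702 without the 2 libraries, 0.518 in the first series). With thalamus markers it was 0.235 (permutation p = 0.452, adjusted 0.691; rho = 0.098, adjusted 0.844; 0.314 and 0.246). A pooled value spans the genotype gap of Anxa6, so values within each genotype are given as a description over 6 libraries each, with no test. They were -0.801 in WT and -0.748 in KO-labelled libraries with oligodendrocyte markers, and -0.609 and -0.321 with thalamus markers. With leptomeningeal markers they were -0.453 and 0.484, with microglia markers 0.230 and -0.333, with astrocyte markers 0.033 and -0.151, and with hippocampal neuron markers 0.178 and 0.819. Among these 6 lists, oligodendrocyte and thalamus markers had the same sign as each other in both genotypes. Hippocampal neuron markers had the opposite one, at only 0.178 in WT. Of the lists without a pooled value, interneuron markers were at -0.957 in WT and -0.752 in KO-labelled libraries. Neocortex markers were at -0.741 and -0.586, and striatum and septum markers at -0.256 and -0.553. In these lists replicate 2 of both KO groups stood apart from the other KO-labelled libraries. Endothelium, mural cell and choroid plexus markers changed sign between genotypes.

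The genes most like Anxa6 over the 12 libraries, among 14102 with a mean of at least 1 CPM, were Cfap97 (r = 0.954), Fto, an RNA demethylase (0.949), Prkar1a, a regulatory subunit of protein kinase A (0.940), Sdf4 (0.937) and Zfp280b (0.935). The most opposite were Cxadr, a cell adhesion receptor (-0.962), Myo16 (-0.937), Dtnbp1 (-0.936), Clgn (-0.932) and Sgcb (-0.927). These values are across genes with no test, and all 10 share the genotype gap with Anxa6. Prkar1a, for one, had a mean of 721 ± 46.7 CPM over WT mice and 566 ± 19.8 CPM over KO-labelled mice, and Cxadr of 21.5 ± 4.19 and 88.4 ± 10.1 CPM (SD, n = 6 each). After subtracting group means the likest were Fyttd1 (0.991), Gabra4, a GABA receptor subunit (0.969), Zfp207 (0.948), Zfp790 (0.945) and Slc38a7 (0.940), none of them among the first 5.

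Known partners of annexins were not called between genotypes or for training, where edgeR called 0.576% and 0% of all genes. Of 28 listed, 22 were tested, with 10 positive and 12 negative log2 fold changes between genotypes (mean of both treatments, median -0.03), where 52% of all genes were negative (median -0.01). The 4 with the lowest p were Pdcd6ip, the ESCRT adaptor ALIX (-0.14, SE 0.05), Kdr, the VEGF receptor (-0.43, SE 0.17), S100a4 (0.98, SE 0.46) and Plscr1, a phospholipid scramblase (-0.50, SE 0.27), with edgeR adjusted p = 0.216 to 0.425. S100a4 was low, at 0.360 to 0.950 CPM in WT and 0.574 to 3.86 CPM in KO-labelled libraries. Its highest value was that of KO house control replicate 3, and the next was 1.10 CPM. For training 17 of the 22 were negative (median -0.25), where 52.3% of all genes were (median -0.01). They were led by Ahnak, a large scaffold protein that binds the Anxa2 complex (-0.32, SE 0.11, edgeR adjusted p = 0.414), and Kdr (-0.47, SE 0.17, edgeR adjusted p = 0.422). Partners of single members, named after their values were seen, were Rasa1 (-0.14, SE 0.13) and Prkca (0.27, SE 0.17) for annexin A6 and S100a10 (0.50, SE 0.30) for annexin A2 (genotype log2 fold changes).

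Among 46 further genes listed for C2-domain proteins, many but not all of which bind membranes with calcium, 43 were tested. Of these 3 were higher in KO-labelled libraries and 0 were lower, where edgeR called 0.384% of all genes higher and 0.192% lower. The list was chosen with earlier results of these data known, so the count is a description and no result about the class. Rasal1, a Ras GTPase-activating protein, rose from 59.6 ± 11.6 to 99.8 ± 9.56 CPM (SD, n = 6; log2 0.75, SE 0.10, edgeR adjusted p = 0.0183). Cpne7, a copine, rose from 31.7 ± 6.39 to 66.3 ± 15.5 CPM (log2 1.06, SE 0.16, edgeR adjusted p = 0.0251). Unc13b, a vesicle priming factor, rose from 35.1 ± 2.24 to 41.7 ± 2.03 CPM (log2 0.25, SE 0.05, edgeR adjusted p = 0.0497). In each of the 3 all KO-labelled libraries were above all WT libraries, as in 1.06% of all genes, and Syt12 was next (0.46, SE 0.11, edgeR adjusted p = 0.0846). In all 30 of 43 were positive (median 0.15, that of all genes -0.01). For training 0 were called, with Esyt1 at -0.47 (SE 0.11) and Syt12 at 0.34 (SE 0.11, both edgeR adjusted p = 0.414). DESeq2 called 8 of these genes between genotypes, where it called 5.04% of all genes, and 1 for training, where it called 0.442%. The edgeR count was 0 without WT trained replicate 3 or KO trained replicate 1, and 1 when any of 4 others was left out (replicate 2 of either WT group, replicate 1 of the KO house controls, replicate 3 of the KO trained mice). The Unc13b call ended without any 1 library other than WT trained replicate 1.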

How the data were processed

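RNA from the dorsal hippocampus of 12 mice was column-purified and polyadenylated RNA was sequenced, per the labels' protocols. The authors deposited raw counts per gene symbol for each library. Named in the submitters' notes on processing are the build mm10 and, with no role or order, HTSeq 0.9.1, TopHat2 2.1.1, Bowtie2 2.3.4.2, cutadapt 1.18 and DESeq2 1.18.1. No source used here gives a strand setting, so reads of Anxa2, Anxa4 and Anxa11 cannot be told apart from those of the opposite-strand genes Gm16144, Gm44036 and Anxa11os, whose exons overlap theirs by 98, 75 and 113 bases, nor reads of Anxa3 from Gm42603 (same strand, 112 bases). Per the file headers, each of the authors' 4 deposited tables has raw and adjusted p-value columns beside a log2 fold change, its SE, a score from their test and a mean signal over scaled counts.

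Groups came from the labels, which give each library its own animal number. The edgeR p-values rest on the spread between mice within these groups of 3, estimated over all 4 groups. Permutations for the correlations shuffled all 12 libraries without regard to group, so their p-values take in group differences too. Counts were fitted in R 4.3.3 with edgeR 4.0.16 (TMM scaling; filterByExpr with minimum count 10 and total 15, leaving 15622 genes; quasi-likelihood test, robust, 4 group means over 12 libraries, 8 residual degrees of freedom). Benjamini-Hochberg adjustment ran over the 15622 genes, with a threshold of 0.05. The script was tested on simulated data. Mean effects weight both groups equally. Correlations used log2(CPM + 1) and 100000 two-sided permutations (scipy 1.17.1), adjusted over each family. Lengths and positions come from GENCODE M21 (GRCm38). Alternatives were no filter, median-of-ratios scaling, DESeq2 1.42.0, animal series as a covariate, the first series alone, the compared groups alone, each library left out, and named sets of libraries left out. Named genes were the 8 annexins and other Anxa symbols, Mbnl genes, list members called or with the 4 (genotype) or 2 (training) lowest p, the 5 genes most and least like Anxa6, and up to 3 neighbours a side. Members, lists and tests were chosen with earlier results of these data known.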

Additional observations from a re-analysis of the deposited data

How the results depend on the processing

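The 7 annexins other than Anxa6 were called in no comparison under any alternative that was run: of 959 alternative log2 fold changes 0 were called, and 57 changed sign without being called. The mean genotype difference of Anxa6 ran from -1.16 to -1.03. For the 46 genes of C2-domain proteins, the 3 genotype calls became 8 with DESeq2, 0 in the first animal series alone, 1 without KO replicate 2 of both treatments, and 0 without the 3 house control libraries of highest thalamus markers. Leaving out 1 library at a time gave 0 to 4 calls in that list. For training, the 0 calls of that list became 1 with DESeq2. Over all genes, edgeR called 90 between genotypes and DESeq2 725, and for training 0 and 69. Leaving out 1 library moved the 90 to between 8 (without WT trained replicate 3) and 268 (without WT house control replicate 1). The cause of these moves was not tested, and the fits that leave libraries out also rest on fewer samples. Of all 96 correlations computed with marker lists, including those with the 6 lists that get no pooled value, 13 passed, and 14 with a pseudocount of 0.25. No paired analysis was possible because the labels carry no replicate number shared between groups, and the numbers used follow accession order. Where a library was left out, each group kept 2 or 3 libraries, except that 1 WT house control library was left when 3 were removed together and was taken to vary like the other groups. Depth limits Anxa1, at 5 to 52 counts per library.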

Other observations

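The count files hold 4 further annexin symbols. Anxa8 ranged from 0 to 1.94 CPM, at 0 to 47 counts per library, and the ranges of all groups overlapped. Its highest value in each group was 1.94 (WT house control), 1.15 (WT trained), 0.531 (KO-labelled house control) and 1.28 CPM (KO-labelled trained). Each of these was the library of the second animal series, and the first series held 0 to 0.368 CPM. Anxa9 ranged from 0.415 to 1.64 CPM in all 12 libraries. The mean genotype log2 fold change was -0.86 for Anxa8 (SE 1.05) and -0.29 for Anxa9 (SE 0.35), both with an edgeR adjusted p = 0.747. Anxa10 and Anxa13 had 0 to 3 counts in each library and were not tested, and Anxa10 had 0 counts in all 6 WT libraries.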
